A study of Rattus norvegicus with 20 samples.

Results

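Mature microRNAs (miRNAs) of the miR-192, miR-194 and miR-215 loci were followed in the kidneys of rats given aristolochic acid I (AAI), namely rno-miR-192-5p, rno-miR-192-3p, rno-miR-194-5p and rno-miR-215 (rno, for the rat, is left out of the names from here on where it is clear). They were chosen by name, as the array entries that carry one of these rat miRNA names, and they are 4 of the 719 rat miRNAs on the array. AAI is a plant acid that is toxic to the kidney tubule and binds DNA. Male Wistar rats of 80 to 100 g were injected intraperitoneally with AAI at a dose of 40 mg per kg, and 5 of their kidneys were taken at each of day 2, day 4 and day 6. The control rats received polyethylene glycol (PEG400) mixed with water on the same schedule, and their 5 kidneys were taken at day 6 only, so that day 2 and day 4 of AAI were set against a day 6 control. Each kidney's total RNA, labelled with Cy3, went onto an array of its own, for 20 arrays on 3 slides. The labels do not state whether the 5 kidneys of a group came from different rats, so each p-value measures the spread between these samples, which may in part be technical.

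A miRNA gene is transcribed as a hairpin, and enzymes cut a short RNA from each of its arms, named 5p and 3p. The arm that is loaded into Argonaute pairs with messenger RNAs mainly through its seed, bases 2 to 8, and lowers their translation and stability. The miR-192 and miR-194 hairpins are neighbours that are transcribed together, and so are miR-194 and miR-215. In the kidney both are known as miRNAs of the tubular epithelium, most of all of the proximal tubule, and the transcription factor p53 is known to raise both clusters.

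The mature sequences are shown first, because they decide what the array can tell apart. They are from RefSeq on the GRCr8 rat genome, 5′ to 3′, with the seed in capitals, and the last line is the other arm of miR-194, which is no member and is followed beside it.
miR-192-5p: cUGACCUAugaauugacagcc
miR-215: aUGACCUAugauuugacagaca
miR-192-3p: cUGCCAGUuccauaggucacag
miR-194-5p: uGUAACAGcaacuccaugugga
miR-194-3p: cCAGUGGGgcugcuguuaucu
MiR-192-5p and miR-215 share the seed UGACCUA, and no other rat miRNA on the array shares a seed with a member. Over the first 21 bases 18 are identical, and miR-215 differs from miR-192-5p by C1A, A12U and C20A, counted from the 5′ end.

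The hairpins are shown with the annotated mature arms in capitals, from RefSeq on GRCr8, all on the plus strand. Mir194-2 lies at chr1:212994024-212994108 and Mir192 at chr1:212994209-212994318, with 100 bases between them. Mir194-1 lies at chr13:99382716-99382798 and Mir215 at chr13:99382990-99383086, with 191 bases between them.
Mir192: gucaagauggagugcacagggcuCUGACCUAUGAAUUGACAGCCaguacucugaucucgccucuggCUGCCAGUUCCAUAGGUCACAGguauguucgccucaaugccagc
Mir194-2: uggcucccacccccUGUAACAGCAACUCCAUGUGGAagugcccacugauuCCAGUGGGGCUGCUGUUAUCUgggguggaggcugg
Mir215: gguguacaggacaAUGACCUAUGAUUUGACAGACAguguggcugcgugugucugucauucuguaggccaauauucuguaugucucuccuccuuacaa
MiR-194-5p has the same 22 bases from both loci, so its signal cannot be assigned to chromosome 1 or 13. MiR-192-5p and miR-192-3p come from chromosome 1 and miR-215 from chromosome 13, and these miRNAs therefore report on one locus each.

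Each member had 2 probes, printed as 7 to 10 usable spots per array. The longer probes of the seed-sharing members are given here because they show how many bases set the signals of these miRNAs apart.
miR-192-5p probe: ggctgtcaattcataggtc
miR-215 probe: tgtctgtcaaatcataggt
The first pairs with bases 3 to 21 of miR-192-5p over all 19 of its bases, and with 17 of 19 at the same place in miR-215. The second pairs with bases 4 to 22 of miR-215 over 19 bases and with 16 of 19 in miR-192-5p. The summed signal of the miR-215 probes was -2.33 to 1.19 on arrays where that of miR-192-5p was 1154 to 2578. How much signal such a mismatched pair gives was not tested by itself, in either direction.

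The scanner software called 250 to 328 miRNAs detected per array, with the highest number on AAI day 4 array 2. The 75th percentile by which each array was scaled was 312 to 452 in vehicle and 309 to 535 at AAI day 6, in intensity units. Of 18 kidney-enriched miRNAs other than the members, 17 were detected on all 20 arrays. The liver miRNA miR-122-5p was called detected on 4 of 20 arrays and miR-122-3p on 0, and the muscle miRNA miR-1-3p on 0.

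Both arms of miR-192 were detected on all 20 arrays, as was miR-194-5p, and miR-215 on 0. Before any scaling, the signal was 1154 to 2578 for miR-192-5p, 15.7 to 44.0 for miR-192-3p and 805 to 1662 for miR-194-5p, in arbitrary intensity units that are not comparable between probes. Levels below are log2 of that signal over the 75th percentile of the array, so that 1 unit is a doubling.

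**Figure D1:**
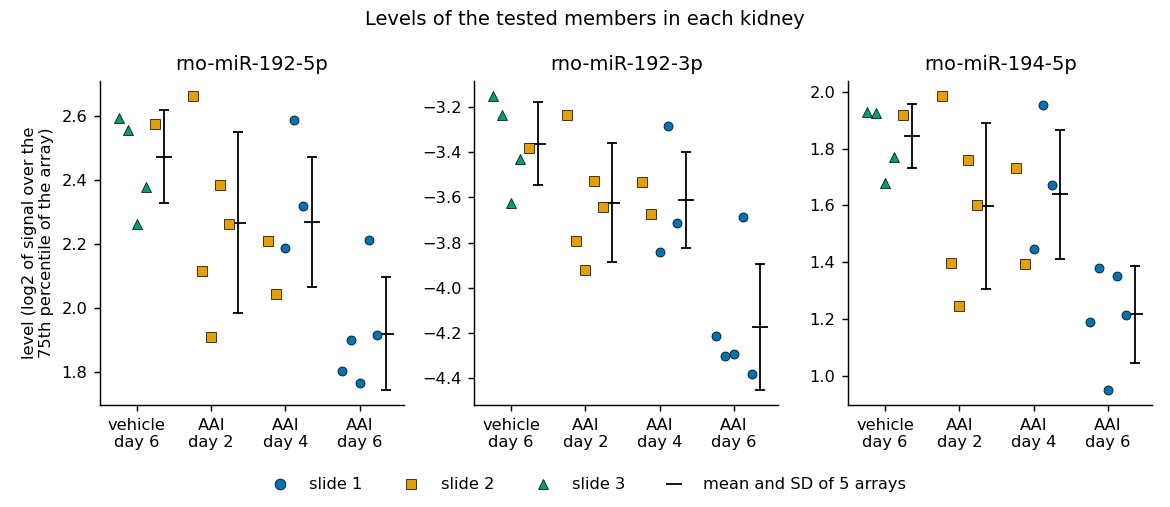
Level of miR-192-5p, miR-192-3p and miR-194-5p on each array (log2 of signal over the 75th percentile of the array, vertical axis) in the 4 groups (horizontal axis), with 1 point per kidney, the slide shown by shape and colour, and the mean and SD of 5 arrays as a bar. In each panel all 5 AAI day 6 arrays lie below all 5 vehicle arrays, while the day 2 and day 4 arrays overlap with vehicle.

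At AAI day 6 all 3 detected members were lower than in vehicle, by 1.47-fold to 1.75-fold. The 5′ and 3′ arms of the miR-192 hairpin were both lower, and so was the neighbouring miR-194-5p. At day 2 and day 4 none of the 3 passed the test, and their means lay between those of vehicle and day 6. MiR-215, which shares the seed of miR-192-5p, gave no signal above background in any group.

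MiR-192-5p is the more abundant arm of its hairpin in most tissues, and in renal cells it is known to repress the transcriptional repressors Zeb1 and Zeb2. The level of rno-miR-192-5p on the 5 vehicle arrays was 2.60, 2.56, 2.26, 2.38 and 2.58. At AAI day 6 it was 1.80, 1.90, 1.76, 2.21 and 1.91. The highest day 6 array, 2.21, lay just below the lowest vehicle array, 2.26, so the groups did not overlap.

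The mean of miR-192-5p was 2.47 ± 0.15 (SD, n = 5) in vehicle and 1.92 ± 0.18 at day 6. The change was -0.56 ± 0.13 (SE), a 1.47-fold lower level with a 95% interval of 1.21 to 1.78, at an adjusted p of 0.00445 in limma. It ranked 18 from the lowest of 262 tested miRNAs. In these whole-kidney samples, fewer tubular cells and less of the miRNA per cell cannot be told apart.

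MiR-192-3p is the other arm of the same hairpin, with a different seed and so a different set of predicted targets. The level of rno-miR-192-3p was -3.15, -3.23, -3.62, -3.43 and -3.38 in vehicle. At day 6 it was -4.21, -4.30, -4.29, -3.69 and -4.38. The other 4 day 6 arrays lay well below vehicle, and array 4, at -3.69, lay close to the lowest vehicle array.

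For miR-192-3p the means were -3.36 ± 0.18 (SD, n = 5) in vehicle and -4.17 ± 0.28 at day 6. The change of -0.81 ± 0.15 (SE) is a 1.75-fold lower level, with a 95% interval of 1.41 to 2.17 and an adjusted p of 0.000618 in limma. It was the 4th lowest of the 262 changes. Its signal is dim, since only 52.6% of the spots of its shorter probe were well above background, against 100% for both probes of each of the other 2 detected members.

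MiR-194-5p, transcribed with miR-192 and also with miR-215, is known as an epithelial miRNA that represses N-cadherin. The level of rno-miR-194-5p was 1.93, 1.92, 1.68, 1.77 and 1.92 in vehicle. At day 6 it was 1.19, 1.38, 0.95, 1.35 and 1.22. The gap between the groups, from 1.38 to 1.68, was wider than that for miR-192-5p.

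The mean of miR-194-5p was 1.84 ± 0.11 (SD, n = 5) in vehicle and 1.22 ± 0.17 at day 6. Its change was -0.63 ± 0.13 (SE), or 1.54-fold lower, with an interval of 1.27 to 1.87 and an adjusted p of 0.00226 in limma. It ranked 11 from the lowest.

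All 3 tested members were called at day 6, where 26% of the 262 tested miRNAs were called in either direction and 18.7% were called lower. All 3 had groups that did not overlap, against 23.3% of the tested miRNAs in either direction and 19.1% with day 6 below vehicle. The median change over all tested miRNAs was -0.11. Relative to that median the changes were -0.44 for miR-192-5p, -0.70 for miR-192-3p and -0.52 for miR-194-5p.

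**Figure D2:**
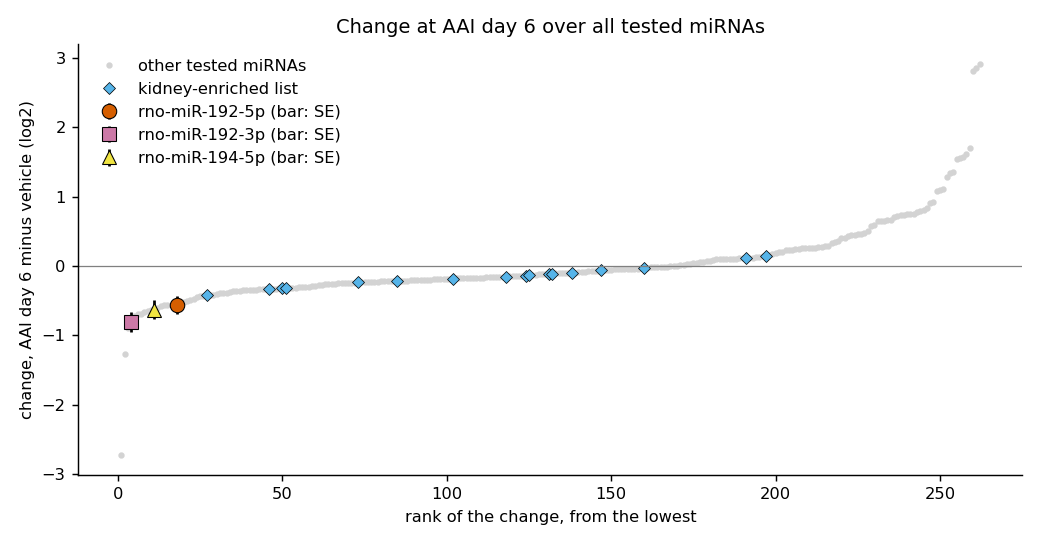
Change at AAI day 6 against vehicle (log2, vertical axis) of all 262 tested miRNAs in order from the lowest (horizontal axis), with the 3 tested members marked with their SE and the 17 tested miRNAs of the kidney-enriched list as diamonds. The members stand at ranks 4, 11 and 18, at lower values than all 17 listed kidney miRNAs, of which the lowest is -0.42.

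The 2 probes of a member gave similar day 6 changes. They were -0.54 and -0.56 for miR-192-5p, -0.80 and -0.82 for miR-192-3p, and -0.63 and -0.63 for miR-194-5p. With each probe alone the day 6 arrays lay below all vehicle arrays, except with the shorter, dimmer probe of miR-192-3p, where the groups overlapped. Both probes of a member read the same RNA on the same arrays under the same scaling, so they are not independent. The share of all probes on the array that separated in this way is not given here.

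The size of the day 6 change depended on how arrays were scaled, while all 27 alternatives run gave a negative change for all 3 members. Before scaling, miR-192-5p gave 1823 to 2179 in vehicle and 1154 to 2448 at day 6. MiR-192-3p gave 32.5 to 37.6 in vehicle and 15.7 to 41.0 at day 6, and miR-194-5p 1187 to 1450 and 805 to 1347. Unscaled, the groups overlapped for every one of these miRNAs.

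Without scaling the day 6 changes were -0.19 for miR-192-5p, -0.44 for miR-192-3p and -0.26 for miR-194-5p, with adjusted p of 0.444, 0.123 and 0.224 in limma. In that setting the median of all tested miRNAs was 0.26, 33 miRNAs were called higher and 1 lower, where the 75th percentile scaling had called 19 higher and 49 lower. Relative to the median of all tested miRNAs the member changes were the same without scaling as with it, since a factor per array moves every miRNA alike. Over 17 such settings the change relative to the median was -0.66 to -0.28 for miR-192-5p, -0.88 to -0.15 for miR-192-3p and -0.52 to -0.32 for miR-194-5p.

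**Figure D3:**
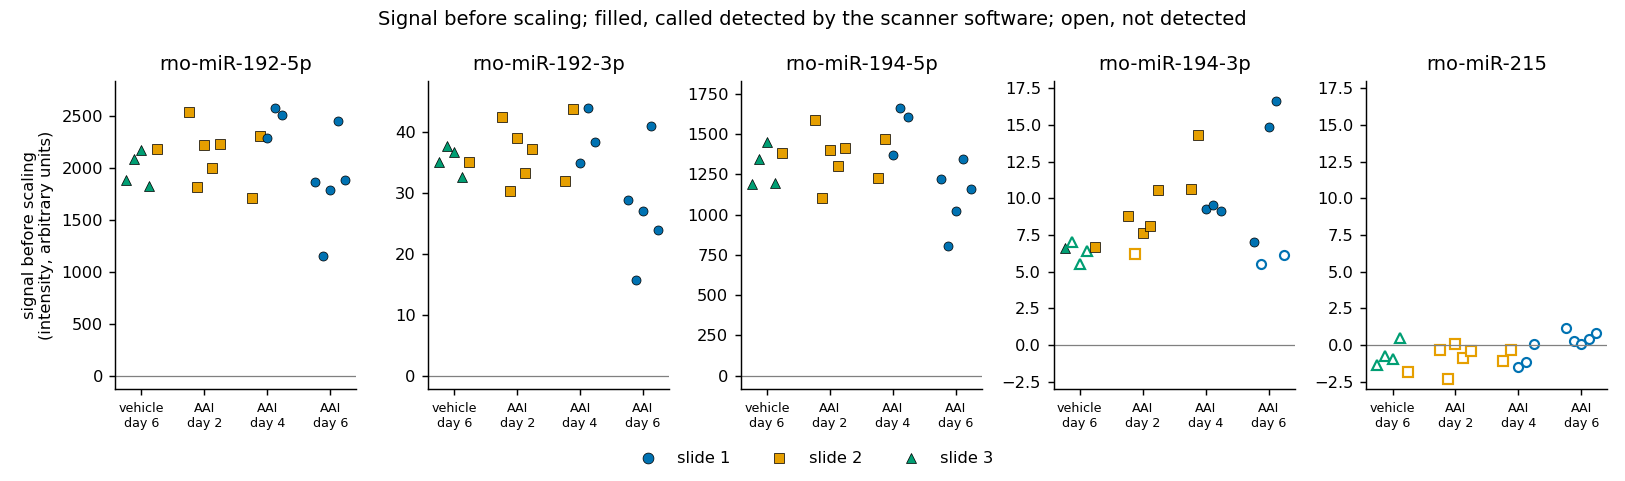
Signal before scaling (intensity, arbitrary units, vertical axis) on each array in the 4 groups for miR-192-5p, miR-192-3p, miR-194-5p, the other arm miR-194-3p and miR-215, filled where the scanner software called the miRNA detected and open where it did not. The vehicle and day 6 arrays overlap in every panel, and miR-215 has no detected array, with values from -2.33 to 1.19.

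Slide and group were partly confounded. Slide 3 held 4 of the vehicle arrays, slide 2 held 1 vehicle array, all 5 of day 2 and 2 of day 4, and slide 1 held 3 of day 4 and all 5 of day 6. No slide held both vehicle and day 6. With slide as a fixed block, which links these groups through day 4 and the single vehicle array of slide 2, the day 6 changes were -0.90 for miR-192-5p, -0.78 for miR-192-3p and -0.83 for miR-194-5p, with adjusted p of 0.0302, 0.0874 and 0.0476 in limma. As a random block the changes were -0.67, -0.80 and -0.70, and all 3 were called. Of the 262 tested miRNAs the fixed block called 90, of which 60 were lower. The random block called 60, of which 46 were lower. When AAI day 4 array 2 was also left out of the fixed-block fit, the adjusted p rose to 0.134, 0.243 and 0.205, and 0 of 262 miRNAs were called.

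**Figure D4:**
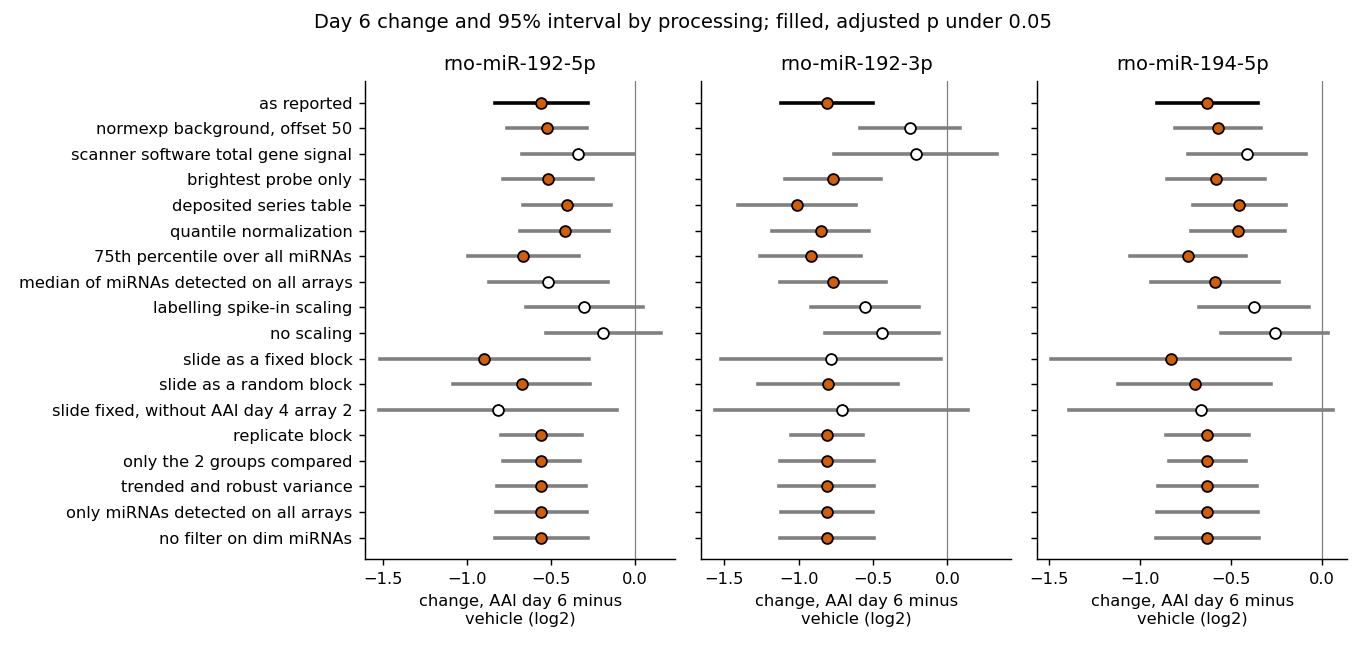
Change at AAI day 6 against vehicle with its 95% interval (log2, horizontal axis) for miR-192-5p, miR-192-3p and miR-194-5p under the reported processing and 17 alternatives (rows), filled where the adjusted p in limma was under 0.05. All points lie below 0, and the points nearest 0 are without scaling for miR-192-5p (-0.19) and for miR-194-5p (-0.26), and with the total gene signal of the scanner software for miR-192-3p (-0.21).

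At AAI day 2 the members spread widely within the group. MiR-192-5p was at 2.66, 2.12, 1.91, 2.38 and 2.26, so array 1 lay above every vehicle array and array 3 below every one. MiR-192-3p was at -3.24, -3.79, -3.92, -3.53 and -3.64, and miR-194-5p at 1.99, 1.40, 1.24, 1.76 and 1.60. The same arrays, 1 and 3, were the highest and lowest for all 3 members, and array 3 had the highest 75th percentile of its group.

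The day 2 changes against vehicle did not pass the test in limma, where 1.53% of tested miRNAs were called. MiR-192-5p changed by -0.21 ± 0.13 (SE), with an interval of -0.48 to 0.07 and an adjusted p of 0.636. For miR-192-3p the difference was -0.26 ± 0.15 (-0.57 to 0.048, adjusted p of 0.556), and for miR-194-5p it was -0.25 ± 0.13 (-0.53 to 0.032, adjusted p of 0.532). Without scaling all 3 differences turned positive, at 0.09, 0.03 and 0.05. Within slide 2, which held the single vehicle array, they were -0.31, -0.24 and -0.32.

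At AAI day 4 the levels were close to those of day 2. MiR-192-5p was at 2.21, 2.04, 2.19, 2.59 and 2.32, miR-192-3p at -3.53, -3.67, -3.84, -3.29 and -3.71, and miR-194-5p at 1.73, 1.39, 1.45, 1.96 and 1.67. Array 4 was the highest for all 3 members and overlapped with vehicle. The day 4 arrays came from 2 slides, and both slides held arrays below the vehicle range.

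None of the members was called at day 4, where 3.44% of tested miRNAs were. The differences from vehicle were -0.20 ± 0.13 (SE) for miR-192-5p, -0.25 ± 0.15 for miR-192-3p and -0.21 ± 0.13 for miR-194-5p, with adjusted p of 0.343, 0.312 and 0.347 in limma. Their 95% intervals, in the same order, were -0.48 to 0.07, -0.55 to 0.063 and -0.48 to 0.07. Without scaling the differences were 0.16, 0.12 and 0.16, and within slide 2 they were -0.45, -0.22 and -0.36.

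Between the AAI days the step to day 6 was larger than that from day 2 to day 4 in each member, although the difference between the steps was not tested. From day 2 to day 4 the differences were 0.003 for miR-192-5p, 0.015 for miR-192-3p and 0.042 for miR-194-5p, and limma called 0% of tested miRNAs, with 20 of 262 (7.63%) at an unadjusted p under 0.05. From day 2 to day 6, where 11.1% of tested miRNAs were called, miR-192-3p fell by 0.55 ± 0.15 (SE) with an adjusted p of 0.0249. MiR-192-5p differed by -0.35 ± 0.13 (adjusted p of 0.0937) and miR-194-5p by -0.38 ± 0.13 (0.0702). The call of miR-192-3p was lost without scaling (-0.47, adjusted p of 0.365 in limma) and with slide as a random block (-0.55, 0.0878). The change nearly vanished with the total gene signal (-0.038) and with normexp (-0.049), and the call was lost too with spike-in scaling, median scaling, slide as a fixed block, only these 2 groups in the fit, and no filter on dim miRNAs. The total gene signal of miR-192-3p was 2.46 times the summed spot signal on day 6 array 2, and 0.657 to 0.674 times on the other 19 arrays. It was also lost when 1 of 4 arrays was left out, namely day 2 array 1 (-0.45, 0.0719) or 4 (-0.52, 0.0510) and day 6 array 3 (-0.52, 0.0582) or 5 (-0.50, 0.0609). Without day 2 array 3, both miR-192-5p (-0.44, 0.0331) and the neighbouring miR-194-5p (-0.47, 0.0309) were called, and without day 6 array 4 miR-192-5p was (-0.42, 0.0493).

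From day 4 to day 6 none of the members was called, where 0.763% of tested miRNAs were, and without day 6 array 4 miR-192-3p was called (-0.69, adjusted p of 0.00740 in limma). The differences were -0.35 ± 0.13 (SE) for miR-192-5p, -0.56 ± 0.15 for miR-192-3p and -0.42 ± 0.13 for miR-194-5p, with adjusted p of 0.238, 0.0835 and 0.134 in limma. The day 4 and day 6 arrays of miR-194-5p did not overlap, with 1.39 as the lowest at day 4 and 1.38 as the highest at day 6, which held for 1.15% of tested miRNAs. Within slide 1, which held 3 arrays of day 4 and 5 of day 6, the differences were -0.45, -0.56 and -0.47.

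In each of the 3 members the order of the group means was vehicle, then day 4 and day 2 at nearly the same level, then day 6, although without scaling day 2 and day 4 stood above vehicle. The difference of day 2 from day 4, and that of either from vehicle, did not pass the test in limma for any of the 3. The order of vehicle and day 6 was the one that passed the test in all 3.

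Both arms of 1 hairpin start from the same precursor, so their difference on an array asks whether they moved together, and any scaling factor cancels in it. The difference of miR-192-3p minus miR-192-5p was -5.75, -5.79, -5.89, -5.81 and -5.96 in vehicle. At day 6 it was -6.01, -6.20, -6.05, -5.90 and -6.29. The other 4 day 6 arrays lay below all vehicle arrays, and array 4 lay within the vehicle range.

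The arm difference averaged -5.84 ± 0.08 (SD, n = 5) in vehicle and -6.09 ± 0.16 at day 6. It shifted by -0.25, at p = 0.0159 in a two-sided exact permutation test and an adjusted p of 0.190 over the 12 pair comparisons, so a larger fall of the 3p arm was not established. Without day 6 array 4, the array within the vehicle range, the shift was -0.30 with an adjusted p of 0.0476 in the same test. Leaving out that array makes the groups separate fully, so this p was fixed by the choice of array and adds no support. The smallest p that this test allows is 0.00794. With normexp background correction the shift was 0.27, with the total gene signal 0.13 and with slide as a fixed block 0.12, all of the opposite sign. The total gene signal of miR-192-3p was 2.46 times the summed spot signal on day 6 array 2, and 0.657 to 0.674 times on the other arrays. The offset of 50 in normexp was added to each spot, and so to each probe of miR-192-3p. The signal of these probes was at most 15.4 and 29.9, and their sum at most 44.0.

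At day 2 the arm difference was -5.90, -5.91, -5.83, -5.91 and -5.91, and at day 4 it was -5.74, -5.72, -6.03, -5.87 and -6.03. The day 2 arrays, all on slide 2, lay closer together than those of the other groups, with an SD of 0.035 against 0.084 in vehicle, 0.15 at day 4 and 0.16 at day 6. At day 4 both arrays of slide 2 lay above the 3 of slide 1. The shifts against vehicle were -0.053 at day 2 and -0.041 at day 4, with adjusted p of 0.590 and 0.771 in the exact permutation test.

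**Figure D5:**
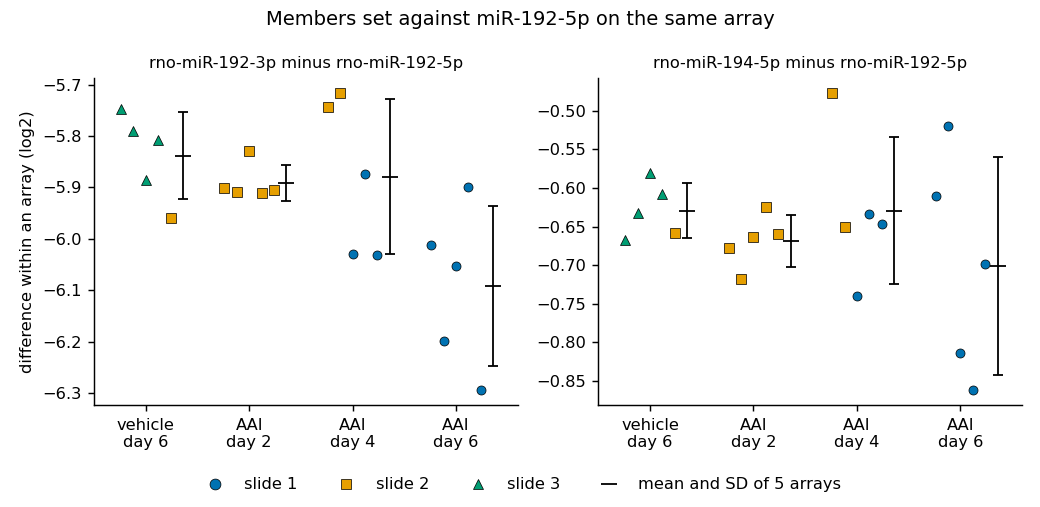
Difference within an array (log2, vertical axis) of miR-192-3p minus miR-192-5p and of miR-194-5p minus miR-192-5p, with 1 point per kidney in the 4 groups, the slide shown by shape and colour, and the mean and SD of 5 arrays as a bar. The arm difference averages -5.84 in vehicle and -6.09 at day 6, while the difference of miR-194-5p from miR-192-5p stays between -0.86 and -0.48 on all arrays.

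The 5p arms of the neighbouring hairpins, miR-194-5p and miR-192-5p, were set against each other in the same way. Their difference was -0.67, -0.63, -0.58, -0.61 and -0.66 in vehicle. At day 6 it was -0.61, -0.52, -0.81, -0.86 and -0.70, a wider spread that covered the whole vehicle range. The means were -0.63 ± 0.04 (SD, n = 5) and -0.70 ± 0.14, a shift of -0.072 with p = 0.302 and an adjusted p of 0.603 in the exact permutation test.

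At the earlier days the difference of miR-194-5p from miR-192-5p was -0.72 to -0.62 at day 2 and -0.74 to -0.48 at day 4. The shifts against vehicle were -0.040 and -0.00044, with adjusted p of 0.357 and 0.992 in the exact permutation test. None of the 12 pair comparisons, over 2 pairs and 6 contrasts, passed after adjustment.

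MiR-215 is the seed relative of miR-192-5p from the other locus, and is best known from intestinal epithelium. The summed signal of rno-miR-215 was -2.33 to 1.19 intensity units over the 20 arrays, with a median of -0.37. It was -1.81 to 0.51 in vehicle and 0.099 to 1.19 at AAI day 6, and 0 of the 192 and 196 usable spots of its 2 probes were well above background. Since no group had a detected array, no fold was computed and no difference was tested in the reported fit. Its pair with miR-192-5p could not be formed.

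MiR-194-3p, the other arm of the chromosome 1 miR-194 hairpin, was near the limit of detection. It was called detected on 14 of 20 arrays, namely 2 vehicle arrays, 4 of day 2, 5 of day 4 and 3 of day 6. Its summed signal was 5.55 to 7.05 in vehicle and 9.13 to 14.3 at day 4. At day 6 it was 7.01, 5.54, 14.9, 16.6 and 6.14, so 2 arrays were high and 3 were near vehicle.

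On the scaled log2 levels miR-194-3p differed from vehicle by 0.34 ± 0.25 (SE) at day 4 and by 0.11 ± 0.25 at day 6, with adjusted p of 0.428 and 0.763 in limma. It entered the fit only because all 5 day 4 arrays were called detected. Day 4 was also the group with its highest mean level, -5.49 against -5.82 in vehicle. Its positive day 4 difference is therefore favoured by the filter and says little by itself. Its day 6 interval, -0.42 to 0.64, overlaps with that of miR-194-5p, -0.91 to -0.35. Only 0% and 18.4% of the spots of its probes were well above background. Whether the 3p and 5p arms of miR-194 differed in their change was not tested.

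Over the 20 arrays the closest pattern to miR-192-5p among the other 230 miRNAs detected on all arrays was that of miR-194-5p. Likeness was measured as the root mean square difference of log2 levels, each centred on its vehicle mean, over 20 arrays that share their scaling factor, and is a description only. It was 0.089 for miR-194-5p, 0.102 for miR-342-3p and 0.110 for miR-203a-3p, against a median of 0.345 over the 230. MiR-192-3p came 13th, at 0.168.

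The nearest to miR-194-5p were miR-192-5p, miR-218a-5p (0.104) and miR-342-3p (0.121), with miR-192-3p 9th. For miR-192-3p they were miR-342-3p (0.140), miR-203b-3p (0.141) and miR-194-5p (0.165), with miR-192-5p 4th. The dim 3p arm thus lay farther from both 5p arms than these lay from each other.

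Of these neighbours, miR-342-3p, known from leukocytes, fell by 0.65 ± 0.12 (SE) at day 6 with an adjusted p of 0.000585 in limma. MiR-203a-3p and miR-203b-3p, known from epithelia, fell by 0.57 ± 0.09 and 0.66 ± 0.13, and miR-218a-5p fell by 0.47 ± 0.13. All 4 were lower without scaling too, at -0.28, -0.20, -0.29 and -0.10, but none was called there.

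At day 6, 18.7% of all 262 tested miRNAs were called lower. Among 18 kidney-enriched miRNAs other than the members, 17 were tested at day 6, of which 4 fell, 0 rose and 13 did not pass in limma. They were miR-204-5p (-0.42 ± 0.10 SE, and -0.05 without scaling), a renal epithelial miRNA, miR-196b-5p (-0.33 ± 0.08, and 0.04 without scaling) and miR-196a-5p (-0.31 ± 0.08 and 0.05) of the Hox clusters, and miR-30e-3p (-0.31 ± 0.09 and 0.06) of the abundant miR-30 family, so that all but miR-204-5p turned positive without scaling. The median of the list was -0.14, beside -0.11 over all tested miRNAs. Without scaling 0 of the 17 were called, 1 had a negative difference and the list median was 0.23, whereas all 3 members stayed negative. The total gene signal, spike-in scaling, median scaling, and the fixed slide block without AAI day 4 array 2 also left 0 of the 17 called, and the fixed slide block alone called 7 lower. The summed level of the list was 6.05 to 6.23 in vehicle and 5.83 to 6.21 at day 6.

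Set against the median of those 17 miRNAs on the same array, where scaling cancels, the mean shift from vehicle to day 6 was -0.40 ± 0.21 (SD, n = 5) for miR-192-5p, -0.65 ± 0.35 for miR-192-3p and -0.47 ± 0.16 for miR-194-5p. Each of the 5 day 6 arrays was below the vehicle mean for each member, with the arrays nearest to it at -0.058, -0.12 and -0.29. The vehicle arrays themselves lay between -0.23 and 0.15 for miR-192-5p, -0.27 and 0.21 for miR-192-3p, and -0.18 and 0.15 for miR-194-5p. On this measure the vehicle and day 6 arrays overlapped for both arms of miR-192 and not for miR-194-5p. How many of all tested miRNAs would not overlap on this measure is not given here. Whether the separation of miR-194-5p is unusual therefore cannot be read from it. At day 2 the means were -0.14, -0.19 and -0.18, and at day 4 they were -0.11, -0.16 and -0.11. These are descriptions, since the list was chosen with earlier results of these data known.

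Because p53 is known to raise the miR-192 and miR-194 clusters, the other p53-induced miRNAs were counted beside them. Of 8 listed, 7 were on the array and tested, and at day 6 limma called 3 higher and 2 lower. Over all 262 tested miRNAs the shares were 7.25% higher and 18.7% lower. MiR-143-3p and miR-145-5p of this list are also in the stromal list below. MiR-34a-5p, a direct p53 target, rose by 2.92 ± 0.37 (SE), miR-34c-5p by 1.28 ± 0.28 and miR-34b-5p by 1.10 ± 0.28, under the reported processing. These calls depended on the processing. With normexp, the total gene signal, the deposited table or slide as a random block 1 of the 7 stayed called higher, miR-34a-5p, and the total gene signal turned miR-34b-5p to -0.90 and miR-34c-5p to -0.94. On the vehicle arrays that total was 2.90 to 3.44 times the summed spot signal for miR-34b-5p and 3.38 to 4.04 times for miR-34c-5p. On the day 6 arrays it was 0.663 to 0.669 times for both. Quantile normalization left 2 of the 7 called higher, without miR-34b-5p (adjusted p of 0.0550 in limma). With slide as a fixed block 0 were called higher, with miR-34a-5p at 1.96 (adjusted p of 0.0761 in limma), miR-34c-5p at 0.19 and miR-34b-5p at 0.02, and with AAI day 4 array 2 left out as well miR-34a-5p stood at 1.37 (0.307). MiR-107-3p fell by 0.33 ± 0.08 and miR-16-5p, named after its value was seen, by 0.26 ± 0.09, but without scaling they stood at 0.04 and 0.11. The list median of -0.07 turned to 0.30 without scaling. MiR-34a-5p was called higher under each of the 5 other scalings run, and the members were negative under each but not always called. None of the members was called without scaling or with spike-in scaling, and miR-192-5p was not called with median scaling. With slide as a fixed block, miR-34a-5p and miR-192-3p lost their calls. The difference of miR-34a-5p stayed positive there and those of the members negative. Whether p53 had a part in the member changes was not tested.

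Markers of other cells were counted at day 6 as well. Of all 262 tested miRNAs, 18.7% were called lower there and 7.25% higher. The erythrocyte miR-451-5p, the single tested marker of that list, fell by 2.73 ± 0.34 (SE), and the summed erythrocyte level was -1.27 to 0.43 in vehicle and -3.87 to -2.26 at day 6. Of 6 leukocyte miRNAs, 2 fell, miR-146a-5p by 0.72 ± 0.09 and miR-342-3p, both negative but not called without scaling, while miR-142-3p (-0.69, adjusted p of 0.0628 in limma) and miR-142-5p (-0.60, 0.123) did not pass, and the summed level was 2.01 to 2.08 in vehicle and 1.43 to 1.82 at day 6. Of 5 stromal miRNAs miR-214-3p alone fell (-0.25 ± 0.08, and 0.12 without scaling), and 0 of 2 endothelial miRNAs did, although miR-126a-3p was near the threshold (-0.21, adjusted p of 0.0502 in limma) and was called lower with either slide block, with the 2 groups alone, with trended variance and with only miRNAs detected on all arrays. The summed stromal level was 3.06 to 3.26 in vehicle and 2.86 to 3.18 at day 6, and the summed endothelial level 3.16 to 3.19 and 2.80 to 3.13. Of 9 miRNAs of muscle, brain and pancreas 3 were tested and 0 called, with summed levels of -2.09 to -1.46 and -1.95 to -1.50, and of 2 liver miRNAs 0 were tested. The part of these cell types in the member changes was not tested.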

How the data were processed

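Per the labels' protocols, kidney RNA came from a mirVana kit and an Agilent kit labelled its miRNAs. The deposited spot values are background-subtracted fluorescence intensity, read with Agilent Feature Extraction 10.7.1.1, with probe coordinates on rn4, per the file headers. The deposited detection and outlier flags are of the other kind, 0 or 1, and a deposited series table of log2 values, whose making is not given in the sources used here, served as an alternative. A miRNA's signal was the sum over probes of the mean spot intensity without outlier spots, divided by the array's 75th percentile over 231 miRNAs detected on all arrays, floored at 0.00640 (12 of 5240 tested values) and put on log2. The 262 miRNAs that 1 or more groups showed as detected on all 5 arrays entered a fit of group means in limma 3.58.1 (R 4.3.3), two-sided, with Benjamini-Hochberg adjustment within each contrast, and called at an adjusted p under 0.05. Pair differences used exact permutation over 252 splits, and 12 pair comparisons were adjusted together. The number of arrays limits the precision. Named miRNAs were the members, the 3 nearest patterns per member, and up to 4 per list by size of the day 6 change (any of the kidney list), and miR-16-5p, added after its value was seen. MiR-150-5p and miR-223-3p were also named, so that the whole tested leukocyte list is shown. The members and lists were chosen with earlier results of these data known. Replicate numbers did not pair the arrays. The listed names miR-15a-5p, miR-486 and miR-155-5p had no match.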

Additional observations from a re-analysis of the deposited data

Results flagged for a closer look

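Dixon's test of the highest and lowest array was run on 20 groups of 5 arrays, at a critical value of 0.71, and chance alone would mark about 1 group in 20. At AAI day 6, array 4 had a miR-192-3p level of -3.69, far above the other 4 arrays of its group, which lay between -4.38 and -4.21. At AAI day 2, the difference of miR-192-3p minus miR-192-5p was -5.83 on array 3 and between -5.91 and -5.90 on the other 4 arrays. Of the time points, day 6 and day 2 differed in miR-192-3p by a change of -0.55 ± 0.15 (SE) with an adjusted p of 0.0249 in limma, a call that was lost in several alternatives.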

How the results depend on the processing

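The limits are few arrays, a dim miR-192-3p, no slide with both vehicle and day 6, and a size of change that moves with the scaling. At day 6 against vehicle each of the 3 tested members was negative in all 27 alternatives, and leaving out 1 array gave -0.63 to -0.52 for miR-192-5p, -0.93 to -0.76 for miR-192-3p and -0.67 to -0.56 for miR-194-5p, all called. MiR-215 was not among the tested miRNAs. Without the filter on dim miRNAs it entered the fit, but its level stood at the floor on every array, so that fit is not informative about it. Where a call or sign changed below, the cause was not tested.

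At day 6 against vehicle, calls were lost in limma as follows, with the log2 change and no other change of call. With spike-in scaling the changes were -0.30 for miR-192-5p (adjusted p of 0.334), -0.55 for miR-192-3p (0.0544) and -0.37 for miR-194-5p (0.113). Without scaling they were -0.19, -0.44 and -0.26, with the total gene signal of the scanner software -0.34, -0.21 and -0.41, and with slide as a fixed block and AAI day 4 array 2 left out -0.81, -0.71 and -0.66. Median scaling ended the call of miR-192-5p (-0.51), and normexp (-0.25) and slide as a fixed block (-0.78) that of miR-192-3p. At day 2 against vehicle, spike-in scaling turned miR-192-5p to 0.051 and miR-194-5p to 0.012, and without scaling the 3 members stood at 0.087, 0.034 (miR-192-3p) and 0.048. At day 4 they stood at 0.16, 0.12 and 0.16 without scaling.

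From day 2 to day 4, where all changes were near 0, signs turned for miR-192-5p with spike-in (-0.075) or median scaling (-0.042), normexp (-0.027), the deposited table (-0.020), quantile normalization (-0.014), slide as a fixed block or within slide 2 (-0.14), that block without AAI day 4 array 2 (-0.058) and slide as a random block (-0.062). They turned for miR-192-3p with spike-in (-0.063) or median scaling (-0.031) and the deposited table (-0.0098), and for miR-194-5p with spike-in (-0.036) or median scaling (-0.0033) and within slide 2 or with slide as a fixed block (-0.036). Leaving out 1 array gave -0.087 to 0.10, -0.066 to 0.11 and -0.047 to 0.14. From day 2 to day 6 the call of miR-192-3p was lost with spike-in (-0.55) or median scaling (-0.53), no scaling (-0.47), the total gene signal (-0.038), normexp (-0.049), slide as a fixed block (-0.54, and -0.47 without AAI day 4 array 2) or random block (-0.55), the 2 groups fitted alone (-0.55) and no filter on dim miRNAs (-0.55). Leaving out 1 array gave -0.67 to -0.45 for miR-192-3p, -0.44 to -0.25 for miR-192-5p and -0.47 to -0.28 for miR-194-5p. From day 4 to day 6 miR-192-3p was called with the 75th percentile over all miRNAs (-0.68), and leaving out 1 array gave -0.69 to -0.48.

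The number of called miRNAs, 4 at day 2 against vehicle, became 8 with spike-in scaling or the 2 groups alone, 9 without scaling, 2 with the deposited table or quantile normalization, and 0 with normexp, the slide settings or only miRNAs detected on all arrays. At day 4 the 9 became 14 without scaling, 4 with the total gene signal, 19 with a fixed block for slide, 3 with a random one, 5 with only miRNAs detected on all arrays, and 0 with normexp, within slide 2 or with the fixed block without AAI day 4 array 2. At day 6 the 68 became 22 with spike-in scaling, 34 without scaling, 23 with the total gene signal, 27 with median scaling, 24 with normexp and 0 with the fixed block without that array. The day 6 count rose to 90 with slide as a fixed block and to 77 with the 75th percentile over all miRNAs. From day 2 to day 4 slide as a fixed block gave 34 in place of 0. From day 2 to day 6 the 29 became 2 with spike-in scaling, 3 without scaling or with the total gene signal, 5 with median scaling, 6 with normexp, 18 with the deposited table, 16 with quantile normalization or the percentile over all miRNAs, 19 with the 2 groups alone, 15 without the filter, 95 with slide as a fixed block and 0 with that block without AAI day 4 array 2. From day 4 to day 6 the 2 became 1 with normexp, without scaling, with either slide block, with the 2 groups alone or without the filter, and 0 within slide 1. Leaving out 1 array gave 2 to 5, 7 to 14 and 58 to 84 against vehicle at day 2, 4 and 6, then 8 to 34 from day 2 to day 6 and 1 to 8 from day 4 to day 6.

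The difference of miR-192-3p minus miR-192-5p turned sign with normexp at day 4 (0.048) and day 6 (0.27) against vehicle, and from day 2 (0.32) and day 4 (0.22) to day 6. With the total gene signal it was 0.13 at day 6 against vehicle, 0.18 from day 2 and 0.17 from day 4. With slide as a fixed block it was 0.068 at day 2, 0.23 at day 4 and 0.12 at day 6 against vehicle and 0.049 from day 2 to day 6, and the first 2 values also held within slide 2. With the brightest probe it was -0.018 from day 2 to day 4. Leaving out 1 array gave -0.30 to -0.20 at day 6 against vehicle, -0.25 to -0.15 from day 2 to day 6 and -0.029 to 0.050 from day 2 to day 4. The difference of miR-194-5p minus miR-192-5p, -0.00044 at day 4 against vehicle, was 0.0013 with normexp, 0.0070 with the brightest probe, 0.041 with the deposited table, 0.045 with quantile normalization and 0.094 with slide as a fixed block or within slide 2. That block gave 0.066 at day 6 against vehicle and 0.077 from day 2 to day 6. Leaving out 1 array gave -0.039 to 0.027 at day 4 against vehicle and -0.077 to 0.0081 from day 2 to day 6.

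Replicate numbers are shared across groups in the labels, but same-numbered arrays did not deviate together, with a mean correlation of -0.033 over 30 pairs of arrays (-0.62 to 0.66) against 0.013 over 120 other pairs. With the replicate block the day 6 changes against vehicle kept their calls in limma, 2 miRNAs were called at day 2, and calls were gained for miR-192-3p from day 4 to day 6 (-0.56) and miR-194-5p from day 2 to day 6 (-0.38).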
